A study of Mus musculus with 20 samples.

Results

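The genes examined are those for translation initiation factors (symbols beginning Eif and a digit) and elongation factors (Eef and a digit), together with the kinases, binding proteins and methyltransferases that carry those symbols. They were chosen by symbol among probes that the platform table assigns to 1 gene, which gave 53 of the 10625 genes tested, and all 53 passed the filter on missing values. Of these, 36 belong to initiation, 6 to elongation and 11 to its regulators, and 161 probes measured them. Mouse fibroblasts lacking heat shock factor 1 (HSF1 -/-, called KO) were set against fibroblasts with the gene (HSF1 +/+, called WT). HSF1 is the factor that induces chaperone genes when cells are heated. The 20 arrays comprise, for each genotype, 3 of unheated cells (0 h) and single ones for 0.5, 1, 2, 3, 4, 6 and 8 h of heat shock. The 0.5, 1 and 2 h arrays form an early window (n = 3 per genotype) and the 3, 4, 6 and 8 h arrays a late one (n = 4 per genotype). Together they are called the heated arrays (n = 7 per genotype).

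Every value is a log2 ratio of the sample (Cy5) to a pool of heated and unheated fibroblast mRNA (Cy3) that all arrays share, after each array was set to a median of 0. A ratio of 0 is therefore the level of that array's median probe, and ratios of different genes say nothing about which transcript is more abundant. Nothing in the labels ties the repeated 0 h arrays to separate cultures. The p-values therefore measure only the spread between arrays, which may be technical. Arrays of a window also differ in time. Genotype cannot be told apart from any other difference between the KO and WT cell lines, and the sources used here do not state whether cells stayed in the heat. Hsf1 itself, the gene targeted, had no probe of its own in the platform table. Hspa1a, a chaperone gene known to be driven by HSF1, was lower on heated KO than heated WT arrays by a log2 difference of -4.86 ± 0.53 (SE, limma adjusted p = 1e-05). Arrays correlated over probes with r of 0.423 to 0.805.

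As background, translation begins when eIF2 carries the initiator tRNA to the small ribosomal subunit. The large eIF3 complex and the small factors eIF1 and eIF1A hold that subunit open, and eIF4E, eIF4G and the helicase eIF4A bring the capped mRNA. Elongation is driven by eEF1A, which delivers each aminoacyl-tRNA and is recharged with GTP by the eEF1B complex, and by eEF2, which moves the ribosome. Stress slows the process chiefly at 2 points: kinases phosphorylate the alpha subunit of eIF2, and eIF4E-binding proteins take eIF4E out of use. These are controls on protein activity, and the arrays measure transcripts only. Many mRNAs of the translation machinery, those of eEF1A and of ribosomal proteins among them, begin with a run of pyrimidines, the 5′ terminal oligopyrimidine or TOP motif.

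Short stretches around the annotated starts show which of these genes could carry such a run. They are printed for some of the genes called in a genotype comparison below and for comparison genes that were not called. The comparison genes have the longest runs among the genes not called. Promoter sequence was in the RefSeq table (GRCm38.p6) for 40 of the 53 genes. Each line gives 30 bases in the direction of transcription, beginning 15 bases before the annotated start, with the longest pyrimidine run in the window in capitals. The 2 Eif2s3 genes are the X-linked and Y-linked copies of 1 subunit.
Eef1a1, eEF1A, chr9:78481710-78481739, minus strand: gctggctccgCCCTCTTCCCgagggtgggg
Eef1b2, the beta subunit of eEF1B, chr1:63176816-63176845, plus strand: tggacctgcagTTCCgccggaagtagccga
Eif2s3x, the gamma subunit of eIF2, chrX:94212637-94212666, minus strand: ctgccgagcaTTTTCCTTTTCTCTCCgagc
Eif2s3y, its Y-linked copy, chrY:1010580-1010609, plus strand: gcggaggccacagccaCTTCCTTCTTTCgt
Eif4a1, the eIF4A helicase, chr11:69672409-69672438, minus strand: acaaagtaacgTCacgtcgagttgcagagc
Eif3f, a subunit of eIF3, chr7:108934400-108934429, plus strand: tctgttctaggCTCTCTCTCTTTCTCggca
Eif2b5, the catalytic subunit of eIF2B, chr16:20498802-20498831, plus strand: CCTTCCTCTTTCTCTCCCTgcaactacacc
A run of at least 8 pyrimidines lay in this window for 11 of the 40 genes (27.5%), for 47.9% of ribosomal protein genes and for 13.9% of all genes in the table. Annotated starts can lie some bases from the true start, so a run is a description of these letters and no more.

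The heat shock element, the motif HSF1 binds, was also searched, because the genotypes differ in that factor. The search used GAANNTTC and TTCNNGAA in the 250 bases before the start. Each reads the same on both strands, so both strands were covered, and the 2 can overlap each other. It was present in 5 of the 40 genes (12.5%), against 14.6% of all genes, and in 0 of the 11 genes with a promoter in the table that passed the test in any comparison below. The 5 sites are given with the element in capitals and 8 bases on each side.
Eif2ak1, an eIF2 alpha kinase, chr5:143817753-143817776, plus strand: cccctacaGAAACTTCctggtcac
Eif2ak3, the eIF2 alpha kinase of the endoplasmic reticulum, chr6:70844294-70844317, plus strand: ccaatccgTTCCAGAAgtggcatt
Eif3a, the largest eIF3 subunit, chr19:60790832-60790855, minus strand: acggtcccGAAGGTTCcctcccgc
Eif3f, an eIF3 subunit, chr7:108934304-108934327, plus strand: actagccgGAAATTTCatgtccaa
Eif4g3, an eIF4G scaffold, chr4:137993308-137993331, plus strand: ctgcggcgTTCCCGAAcagcggcc
The longer form with 3 units, GAANNTTCNNGAA or TTCNNGAANNTTC, was in 0 of the 40 genes and in 0.514% of all genes. A match here is not evidence of binding.

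Before heat shock, most translation factor transcripts had a lower estimate in KO than in WT cells, and a part of them passed the test. Of the 53 genes, 7 were lower and 0 higher past an adjusted p of 0.05 (limma, Benjamini-Hochberg adjustment over all genes), where 3.6% of all genes tested were called lower. Of the 19 genes at an unadjusted p under 0.05, 18 were lower, against 1026 of 2213 such genes among all 10625 tested. Among all 53, 41 lay below 0 and the median log2 difference was -0.28, against 0.05 over all genes tested. In RNA from a whole culture, fewer cells of a kind and less RNA per cell cannot be told apart. Every KO array lay below every WT array for 18 of the 53 genes (34.0%), against 11.9% of all genes, and on heated arrays for 7 of 53 (13.2%), against 2.13% of all genes. On heated arrays 12 were lower and 0 higher past the same threshold, where 6.07% of all genes were called lower. Of the 20 genes at an unadjusted p under 0.05 there, 19 were lower, against 1261 of 2382 such genes among all tested. The median was -0.18, against 0.02 over all genes, with 44 genes below 0. The 2 comparisons contrast different arrays. Each gene's spread was estimated from all 20 arrays, and the cell lines and pool are shared, so their calls are not independent. Both comparisons called 6 genes in common, 6 of the 7 at 0 h and 6 of the 12 on heated arrays: Eef1b2, Eef1d, Eef1g, Eif5a, Eif2s3x and Eif4ebp1. With only the 0 h arrays fitted, Eef1b2, Eef1g, Eif5a and Eif2s3x lost their 0 h calls. The difference had the same sign in both comparisons for 40 of the 53 genes (75.5%), against 64.8% of all genes. Across genes, which are not independent replicates, the differences correlated with r = 0.44, against 0.43 over all genes. Without Eef1akmt2, a gene whose single probe varied most of all 53, r was 0.69. Variable genes were not left out of the value over all genes, so 0.69 has no counterpart there.

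**Figure D1:**
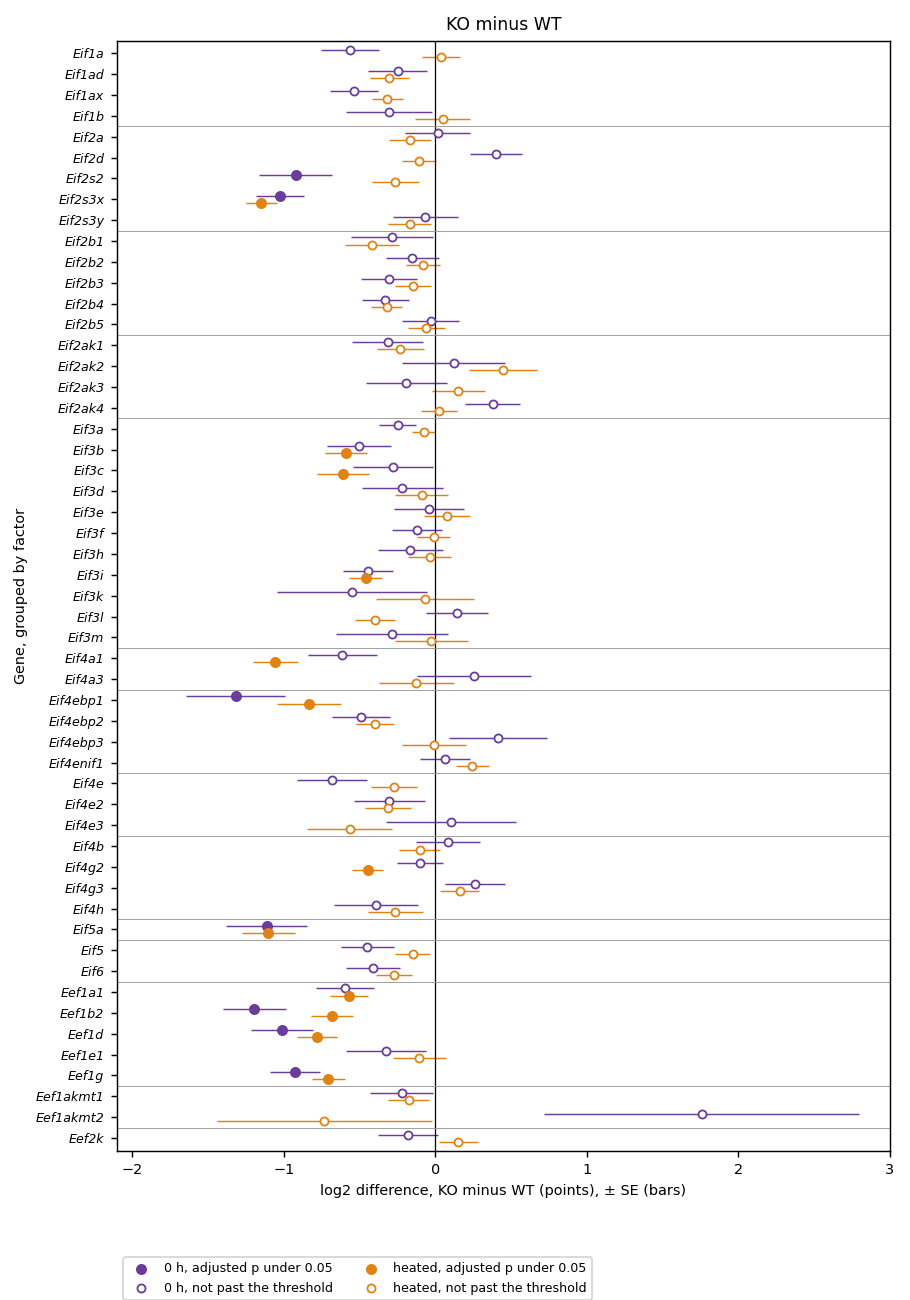
Log2 difference, KO minus WT (horizontal axis), for each of the 53 genes (rows, grouped by factor, with lines between groups), at 0 h (purple, 3 arrays against 3) and on heated arrays (orange, 7 against 7). Points are the limma estimates, bars are ± 1 SE and filled points have an adjusted p under 0.05. All 7 filled purple points and all 12 filled orange points lie left of 0, led by Eif4ebp1 at -1.32 (0 h) and Eif2s3x at -1.15 (heated).

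Array width and some marker genes differed between genotypes at some times, and their part in these differences was not tested. The spread of values within an array (interquartile range, log2) was 1.09 to 1.53 on KO 0 h arrays and 1.47 to 1.52 on WT 0 h arrays. In the early window it was 1.245 to 1.504 on KO arrays (median 1.308) and 1.257 to 1.609 on WT arrays (median 1.258). In the late window it was 0.937 to 1.16 on KO arrays and 1.10 to 1.53 on WT arrays. The ranges of the genotypes overlapped at 0 h and in both windows. With every array scaled to the same width, 5 genes were lower at 0 h and 12 on heated arrays. Of 8 macrophage markers, 6 lay below 0 in KO cells at 0 h, and 2 of these passed (Fcgr1 and Cd68). Of all genes tested, 45.3% lay below 0 there, 3.6% were called lower and 323 of 10625 called higher. The other 2, Cd14 (0.41) and Csf1r (0.62), lay above 0 without passing. The mean log2 ratio of all 8, each relative to its own mean, was -0.23 to -0.05 on KO 0 h arrays and 0.09 to 0.33 on WT 0 h arrays. Heated arrays overlapped in that mean (KO -0.30 to 0.06, WT -0.11 to 0.21), and 3 of the 8 markers, Fcgr1 among them, lay above 0 there. Fibroblast markers moved both ways at 0 h, with 2 of 9 higher and 1 lower. On heated arrays 2 of 8 macrophage markers (Itgam and Cd68), 1 of 5 endothelial, 1 of 8 epithelial and 1 of 6 muscle markers were lower in KO cells, 2 of 4 adipocyte markers were higher, and fibroblast markers were higher for 2 of 9 and lower for 2. Of all 10625 genes tested, 645 were called lower on heated arrays and 445 higher, so single calls in these short lists carry no result alone. A ratio to a pool of the same cells cannot show whether a marker is present.

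Most genes of the eEF1 group were lower in KO cells. Of its 5 genes on the array, 3 were lower in KO cells at 0 h and 4 on heated arrays, with medians of -0.93 and -0.68. Among all genes tested, 3.6% and 6.07% were called lower. The 5 include Eef1e1, a partner of the aminoacyl-tRNA synthetase complex described below. Eef1b2, the beta subunit of the exchange factor eEF1B, had ratios of 1.15, 0.56 and 0.57 on KO 0 h arrays, against 1.87, 1.79 and 2.20 on WT 0 h arrays. The 2 sets do not overlap, and KO was 2.29-fold lower (log2 difference -1.19 ± 0.21 SE, n = 3 each, limma adjusted p = 0.002). On heated arrays it ran from 0.65 to 1.36 with a median of 0.99 in KO cells, and from 1.39 to 2.08 with a median of 1.67 in WT cells (n = 7 each). The groups again stood apart, if narrowly, at 1.60-fold lower in KO (limma adjusted p = 0.0034).

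Eef1d, the delta subunit of eEF1B, had ratios of 1.07, 0.86 and 0.97 on KO 0 h arrays and 2.04, 1.92 and 1.96 on WT 0 h arrays. The arrays of each genotype lay close together and the groups were 2.02-fold apart (-1.01 ± 0.20, limma adjusted p = 0.005). Heated KO arrays gave 0.54 to 1.11 (median 0.91) and heated WT arrays 1.21 to 2.26 (median 1.55), a difference of -0.78 ± 0.13 (limma adjusted p = 7.6e-04). Its highest WT value came from the 0.5 h array and its lowest KO value from the 6 h array.

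Eef1g, the gamma subunit (chr19:8967041-8978180, GRCm38.p6), gave 1.09, 0.77 and 0.75 on KO 0 h arrays, against 1.83, 1.72 and 1.84 on WT 0 h arrays. That is 1.90-fold lower in KO (-0.93 ± 0.16, limma adjusted p = 0.0022), with no overlap. On heated arrays the range was 0.71 to 1.13 in KO cells (median 0.90) and 1.26 to 1.82 in WT cells (median 1.66), with a difference of -0.71 ± 0.11 (limma adjusted p = 2.9e-04). It had 11 probes, and 10 of them were lower in KO at 0 h while 1 was higher, at 0.35. On heated arrays 9 of the 11 were lower and the highest probe stood at 0.74, so its probes disagree.

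Eef1a1, which delivers the aminoacyl-tRNA, passed the test on heated arrays and not at 0 h. It had ratios of 2.25, 2.03 and 1.71 on KO 0 h arrays and 2.87, 2.43 and 2.48 on WT 0 h arrays, a difference of -0.60 ± 0.19 that did not pass the test (limma adjusted p = 0.078). Heated KO arrays gave 1.67 to 1.99 (median 1.92), below heated WT arrays at 2.13 to 2.86 (median 2.53), and that difference passed (-0.57 ± 0.13, limma adjusted p = 0.0073). The eEF1A genes have close copies, and Eef1a2 had no probe of its own here. Eef1e1, a partner of the aminoacyl-tRNA synthetase complex that carries the eEF1 name, overlapped between genotypes at -0.32 ± 0.26 (0 h) and -0.10 ± 0.17 (heated), and neither passed. Eef2 was listed only on 25 probes shared with another gene and was not analysed here.

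Eif5a (chr11:69916712-69921958, GRCm38.p6), the hypusine-carrying factor that frees ribosomes stalled at difficult peptide bonds, was also lower in KO cells. It had ratios of 1.45, 1.26 and 1.25 on KO 0 h arrays, against 2.82, 2.37 and 2.10 on WT 0 h arrays, 2.16-fold lower in KO (-1.11 ± 0.27, limma adjusted p = 0.017). With KO 0 h array 2 or 3 left out, the adjusted p was over 0.05, up to 0.063. Heated KO arrays held 0.67 to 1.48 (median 1.08) and heated WT arrays 1.58 to 2.73 (median 1.92), again without overlap (-1.10 ± 0.18, limma adjusted p = 4.2e-04). In KO cells the 4, 6 and 8 h arrays lay at 0.67 to 0.69 and every earlier KO array at or above 1.08. The late-minus-0 h change in KO, -0.54 ± 0.25, did not pass the test (limma adjusted p = 0.18).

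Among the initiator tRNA carriers, 2 of the 3 eIF2 subunit genes measured were lower in KO cells at 0 h. Of all genes tested, 3.6% were called lower there. Eif2s3x, which encodes the GTP-binding gamma subunit, had ratios of 0.27, 0.06 and 0.10 on KO 0 h arrays and 1.38, 1.31 and 0.82 on WT 0 h arrays (2.04-fold lower in KO, -1.03 ± 0.16, limma adjusted p = 7.0e-04). Heated KO arrays ran from -0.30 to 0.09 (median -0.11), against 0.82 to 1.21 (median 1.08) on heated WT arrays. KO was 2.21-fold lower there (-1.15 ± 0.10, limma adjusted p = 1.2e-06), the smallest adjusted p of the 53 genes in either genotype comparison. Late minus 0 h it stood at -0.16 ± 0.15 in KO and at -0.16 ± 0.15 in WT, neither past the test.

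The Y-linked copy, Eif2s3y, did not pass in either genotype comparison. It had ratios of 0.59, 0.27 and -0.02 on KO 0 h arrays and -0.06, 0.85 and 0.25 on WT 0 h arrays, overlapping throughout (-0.07 ± 0.21, 95% interval -0.52 to 0.38, limma adjusted p = 0.90). On heated arrays it was -0.17 ± 0.14 (95% interval -0.46 to 0.13). Probes of near-identical copies can bind each other's transcripts, so the 2 readings are not independent. Eif1ax, the X-linked gene for eIF1A, lay below WT on all KO 0 h arrays (-0.53 ± 0.16) without passing the test (limma adjusted p = 0.053). Its probes disagreed at 0 h: 3 of the 4 lay below 0, 3 passed alone, and they ran from -0.85 to 0.26.

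Eif2s2, the beta subunit of eIF2, gave 0.48, 0.01 and -0.21 on KO 0 h arrays and 0.96, 1.13 and 0.94 on WT 0 h arrays (-0.92 ± 0.24, limma adjusted p = 0.026). This call is fragile: it was lost with KO 0 h array 2 or any WT 0 h array left out, with adjusted p up to 0.084, and 1 of its 4 probes stood at 0.01. On heated arrays the groups overlapped (-0.26 ± 0.16, limma adjusted p = 0.35). Its probes disagreed there: 3 of the 4 lay below 0, 3 passed the threshold alone, and they ran from -0.71 to 0.94. Eif2s1, the alpha subunit that the stress kinases phosphorylate, had no probe of its own and was not analysed here. Eif2a and Eif2d, which carry initiator tRNA by other routes, did not pass in either genotype comparison.

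The exchange factor eIF2B and the eIF2 alpha kinases gave no calls in any comparison as gene means (limma), but some of their probes disagreed. In KO cells, late minus 0 h, both of the 2 Eif2b5 probes passed alone, in opposite directions (-0.77 and 1.49). On heated arrays, KO minus WT, 1 of 2 probes passed alone for Eif2b4 (-0.61 and -0.02), Eif2ak1 (-0.43 and -0.03) and Eif2ak3 (-0.37 and 0.67). At an unadjusted p under 0.05, 1 of 5 eIF2B genes stood lower at 0 h and 2 on heated arrays, and 0 of 4 kinases in either. Of all 10625 genes tested, 2213 reached that level at 0 h and 2382 on heated arrays, so these small counts carry no result alone. All 5 eIF2B genes lay below 0 at 0 h, from -0.33 to -0.03, and all 5 on heated arrays, from -0.42 to -0.06. Eif2b4, its delta subunit, came nearest at -0.33 ± 0.16 (0 h) and -0.32 ± 0.10 (heated, limma adjusted p = 0.056). The 4 kinases scattered around 0 at 0 h: Eif2ak1, activated by haem loss, at -0.31 ± 0.23, Eif2ak2, activated by double-stranded RNA, at 0.12 ± 0.34, Eif2ak3 at -0.19 ± 0.27 and Eif2ak4, activated by uncharged tRNA, at 0.38 ± 0.18. On heated arrays Eif2ak2 was at 0.45 ± 0.22 (95% interval -0.02 to 0.92).

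The eIF3 complex, with 11 of its subunits measured, gave few calls. At 0 h 10 of 11 lay below 0 (median -0.25) and 0 passed the test. An unadjusted p under 0.05 was reached by 2 of them and by 2213 of all 10625 genes tested. On heated arrays 3 of 11 passed, all lower in KO cells, where 6.07% of all genes were called lower. Among the 3 was Eif3b, a core subunit. It ran from -0.58 to 0.04 (median -0.44) on heated KO arrays and from 0.04 to 0.64 (median 0.15) on heated WT arrays, so that the 2 sets touched without overlapping (-0.59 ± 0.14, limma adjusted p = 0.0097). Eif3i held 0.22 to 0.79 in heated KO cells and 0.63 to 1.15 in heated WT cells (-0.46 ± 0.11, limma adjusted p = 0.010). Eif3c, at 0.10 to 0.61 against 0.56 to 1.75, passed less firmly (-0.61 ± 0.17, limma adjusted p = 0.031), and its call ended in 4 of 14 fits that left out 1 array (KO at 0.5, 6 or 8 h, or WT at 0.5 h). As gene means, Eif3e, Eif3f and Eif3h were near 0 in both comparisons, from -0.16 to 0.08. The Eif3f probes disagreed at 0 h, running from -0.86 to 0.74, and 1 of 4 passed alone. Those of Eif3b ran from -0.96 to 0.37 at 0 h, and 2 of 4 passed alone.

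Eif4a1, the helicase that unwinds the mRNA leader, had the largest late change of the initiation factors in KO cells. On KO 0 h arrays it had ratios of 2.61, 2.19 and 2.28, against 2.78, 2.98 and 3.16 on WT 0 h arrays, a difference that did not pass (-0.61 ± 0.23, limma adjusted p = 0.13). On the 3, 4, 6 and 8 h arrays KO cells gave 1.38, 1.22, 0.82 and 0.80, and WT cells gave 2.59, 1.90, 2.41 and 2.32. The late-minus-0 h change was -1.31 ± 0.21 in KO (2.47-fold lower, limma adjusted p = 0.0011) and -0.67 ± 0.21 in WT (limma adjusted p = 0.068). The difference between these responses was itself tested and did not pass (fold 1.56, 95% interval -1.28 to 0.00 log2). Over all heated arrays KO was 2.08-fold lower (-1.05 ± 0.15, limma adjusted p = 1.5e-04), with each of its 4 probes past the threshold. Eif4a3, the helicase of the exon junction complex, did not pass in any comparison.

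The scaffold Eif4g2, known for cap-independent translation, was lower in heated KO cells and not past the test at 0 h. Its ratios on KO 0 h arrays were 1.82, 1.46 and 1.33, which straddle the WT 0 h values of 1.67, 1.68 and 1.57 (-0.10 ± 0.15, 95% interval -0.42 to 0.22). In the late window KO arrays gave 0.56, 0.91, 0.71 and 0.76, against 1.43, 1.18, 1.14 and 1.22 on WT arrays. KO cells fell by 0.80 on the log2 scale from their 0 h level (1.74-fold, ± 0.14 SE, limma adjusted p = 0.002), and WT cells stood at -0.40 ± 0.14, which did not pass (limma adjusted p = 0.10). Over all heated arrays KO was 1.36-fold lower (-0.45 ± 0.10, limma adjusted p = 0.0079). The difference between the responses did not pass (95% interval -0.83 to 0.02). At 0 h its 7 probes ran from -0.64 to 0.87, in both directions, while all 7 were lower in heated KO cells. Eif4g3, a close relative of the main scaffold, was at 0.26 ± 0.20 (0 h) and 0.16 ± 0.13 (heated), and Eif4g1 had no probe of its own.

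**Figure D2:**
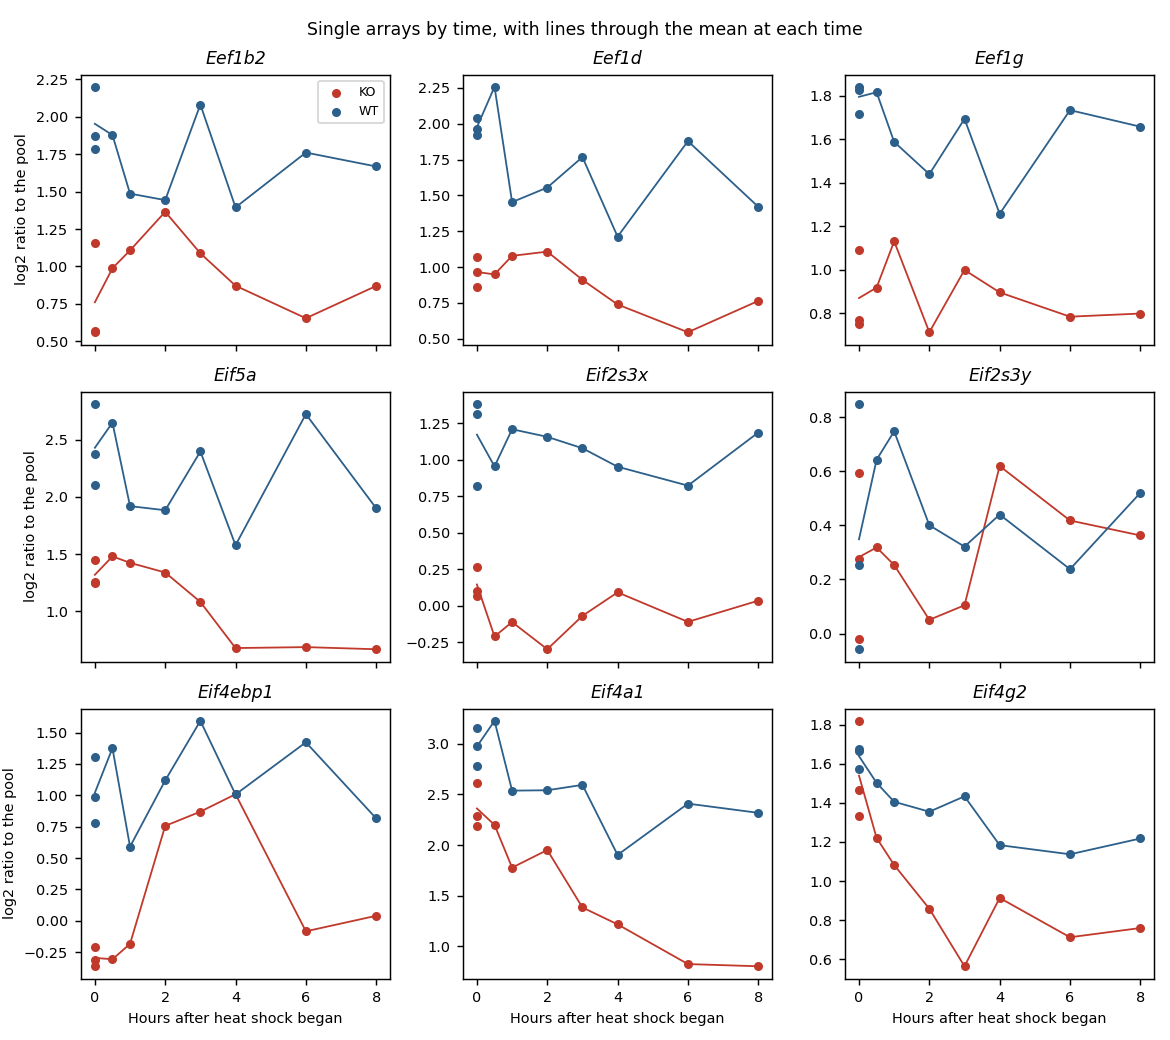
Log2 ratio to the pool (vertical axis, a scale of its own in each panel) against hours after heat shock began for 9 genes, KO in red and WT in blue. Each point is 1 array, with 3 per genotype at 0 h and 1 at each later time, and lines join the means at each time. Eef1d, Eef1g and Eif2s3x keep KO below WT at every time, Eif2s3y crosses, and Eif4g2 overlaps at 0 h and lies lower in KO at each heated time.

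Of the 3 cap-binding protein genes none passed the test (limma), with 1 at an unadjusted p under 0.05 at 0 h and 0 on heated arrays. Eif4e, the cap-binding factor itself, had ratios of 1.67, 1.52 and 0.83 on KO 0 h arrays and 2.03, 2.11 and 1.93 on WT 0 h arrays, which do not overlap yet did not pass (-0.68 ± 0.23, limma adjusted p = 0.09). Its inhibitor Eif4ebp1 (chr8:27260327-27275656, GRCm38.p6), which holds eIF4E away from the scaffold until mTOR phosphorylates it, differed most of the 53 genes at 0 h among those that passed. It had ratios of -0.32, -0.36 and -0.21 on KO 0 h arrays, against 0.98, 0.78 and 1.30 on WT 0 h arrays, 2.49-fold lower in KO (-1.32 ± 0.33, limma adjusted p = 0.020). All 3 of its probes were past the threshold. The call was nonetheless lost in 4 of the 6 fits that left out 1 of these arrays (any KO array, or WT array 3), with adjusted p up to 0.076 and differences of -1.44 to -1.18.

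Eif4ebp1 then moved in KO cells. Its KO ratios were -0.31, -0.18 and 0.76 at 0.5, 1 and 2 h, and 0.87, 1.01, -0.08 and 0.04 at 3, 4, 6 and 8 h, so the 2, 3 and 4 h arrays stood high and the 6 and 8 h arrays low again. WT ratios stayed between 0.59 and 1.59 at these times, and the genotypes met at 4 h, at 1.01 in both. KO late minus 0 h was 0.75 ± 0.31, not past the test (limma adjusted p = 0.13). Averaged over heated arrays KO was still 1.78-fold lower (-0.83 ± 0.21, limma adjusted p = 0.018). Single arrays at each time give no replicate check of that peak. The related Eif4ebp2 was -0.49 ± 0.19 at 0 h and -0.40 ± 0.13 on heated arrays, neither past the threshold, and Eif4ebp3 was 0.42 ± 0.32 and -0.01 ± 0.21.

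The remaining factors did not pass between genotypes. The eIF1 and eIF1A genes all lay below 0 at 0 h, from -0.56 (Eif1a) to -0.25 (Eif1ad), with Eif1b at -0.31 ± 0.28. On heated arrays they ran from -0.32 to 0.05. Eif5, which triggers GTP hydrolysis on eIF2, was -0.45 ± 0.17 at 0 h (limma adjusted p = 0.14), and Eif4h, a helicase cofactor, -0.39 ± 0.28. Eef2k, the kinase that blocks eEF2, was -0.18 ± 0.20 and 0.15 ± 0.13. Eef1akmt2, which methylates eEF1A, ranged over arrays from -4.56 to 2.23 on its 1 probe, so its estimate of 1.76 ± 1.04 at 0 h carries little.

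**Figure D3:**
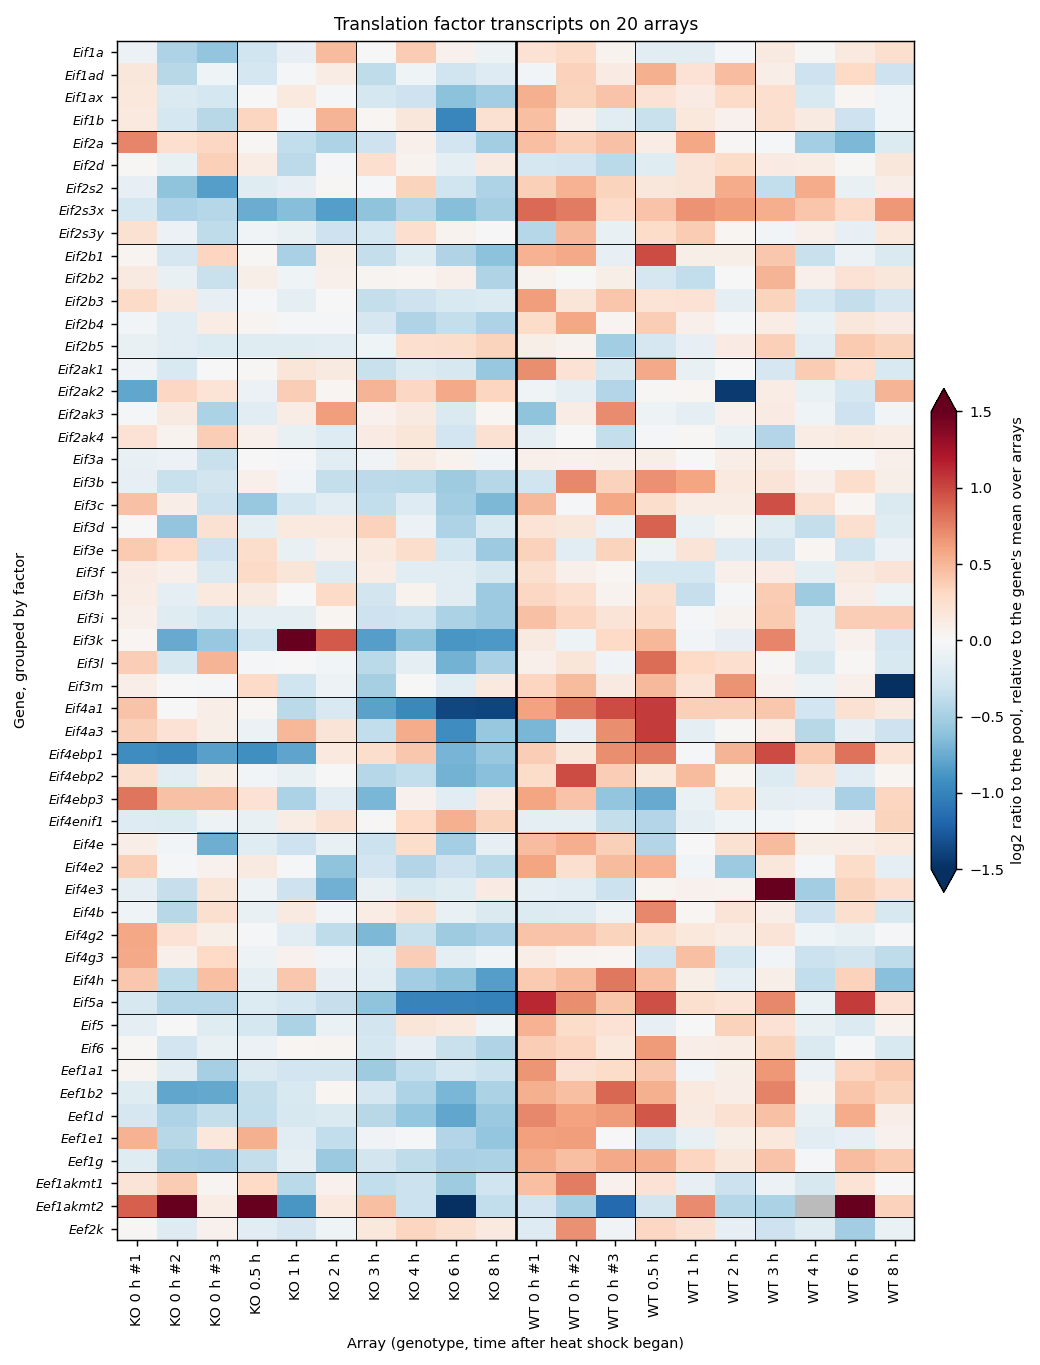
Log2 ratio to the pool relative to each gene's mean over the arrays (colour, red higher and blue lower, ends at ± 1.5) for the 53 genes (rows, grouped by factor) on the 20 arrays (columns, KO left of the thick line and WT right). Rows of Eif2s3x, Eif5a, Eef1b2, Eef1d and Eef1g are blue on nearly all KO arrays and red on nearly all WT arrays, while the eIF2 alpha kinases show no such split. The grey cell has no value.

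Set side by side at each time, KO lay below WT for 39, 38, 34 and 43 of 53 genes at 0.5, 1, 2 and 3 h, for 24 of 52 at 4 h, and for 41 and 44 of 53 at 6 and 8 h. The 4 h pair stood apart, with a median of 0.05 for the 53 genes and 0.05 for all genes, while the median at the other times was -0.49 to -0.23. At all 7 times KO was lower for 12 of the 52 genes with every value (23.1%), against 6.54% of all genes. These are Eef1a1, Eef1b2, Eef1d, Eef1g, Eif2s3x, Eif3b, Eif3c, Eif3i, Eif4a1, Eif4ebp2, Eif4g2 and Eif5a. The median of the 53 genes on single arrays, each relative to its own mean, was -0.17 to 0.08 on KO 0 h arrays and 0.14 to 0.34 on WT 0 h arrays. On heated arrays it was -0.43 to -0.04 in KO and -0.10 to 0.26 in WT, where the 4 h WT array gave the lowest value.

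Between heated and 0 h arrays of the same genotype, few of these transcripts passed the test. In the early window 0 genes passed in KO cells (background 0.0% of all genes). At an unadjusted p under 0.05 (limma) there were 5 of the 53, against 793 of all 10625 genes tested. In WT cells 0 passed as well (background 0.0376%), with 4 of the 53 at an unadjusted p under 0.05 (limma), against 1202 of all genes. Hspa1a itself, at 3.64 ± 0.80 in WT cells, did not pass in this window (limma adjusted p = 0.12). Having 0 calls here therefore does not show an absence of change. In the late window 5 of 53 fell and 0 rose in KO cells, a share near the background of 6.8% of all genes called lower. In WT cells 1 of 53 fell, against a background of 3.67%. At an unadjusted p under 0.05 (limma) there were 17 of 53 in KO (14 lower) and 13 in WT (12 lower). Among all genes tested that level was reached by 2679 in KO (1657 lower) and 2605 in WT (1440 lower). Medians were -0.17 in KO and -0.21 in WT, against -0.02 over all genes in each. The KO and the WT changes had the same sign in 40 of the 53 genes (75.5%), against 68.5% of all genes, and they share no arrays. Across genes they correlated with r = 0.07 over the 53, against r = 0.45 over all genes. Leaving out Eef1akmt2 gave r = 0.58, which has no counterpart over all genes.

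Eif2a, a tRNA carrier used when eIF2 is limiting, was the gene called in both genotypes. Its ratios fell to 0.75, 1.14, 0.77 and 0.54 on the 3, 4, 6 and 8 h KO arrays, against 1.80, 1.32 and 1.37 on KO 0 h arrays (-0.70 ± 0.20, limma adjusted p = 0.032). WT cells gave 1.05, 0.55, 0.39 and 0.85 on the late arrays and 1.52, 1.42 and 1.51 at 0 h (-0.77 ± 0.20, limma adjusted p = 0.028). Neither set of late arrays overlaps its 0 h arrays. Both calls are near the threshold: each was kept in 2 of the 7 fits that left out 1 of its arrays, with adjusted p up to 0.18 in KO and 0.080 in WT. The KO call was kept without the 4 h array or 0 h array 2, and the WT call without the 3 h or the 8 h array.

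The other late falls in KO cells were those of Eif4a1 and Eif4g2, given above, Eif3l, an eIF3 subunit (-0.65 ± 0.19, limma adjusted p = 0.036), and Eif4ebp2 (-0.59 ± 0.18, limma adjusted p = 0.044). Eif4a1 and Eif4g2 kept their calls with any array of that comparison left out, and Eif4g2 lost its call with 1 probe per gene. In this comparison 1 of 4 adipocyte, 1 of 9 fibroblast and 1 of 6 muscle markers also fell and 1 of 8 macrophage markers rose. Of all 10625 genes tested, 723 were called lower and 410 higher. The part of the markers was not tested. Eif3l and Eif4ebp2 kept theirs in 2 of 7 such fits (without the 4 h array or 0 h array 2), with adjusted p up to 0.17 for Eif3l and 0.19 for Eif4ebp2. In WT cells Eif4ebp2 stood at -0.58 ± 0.18 (limma adjusted p = 0.059) and Eif3l at -0.18 ± 0.19. The difference between the KO and the WT response was tested for every gene, and 0 of 53 passed in the early window (background 0.0%) or in the late one (background 0.0941%). At an unadjusted p under 0.05 there were 5 genes early and 3 late (limma), against 889 and 926 of all 10625 genes tested. A gene called in KO cells alone is therefore not shown to respond differently from WT.

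**Figure D4:**
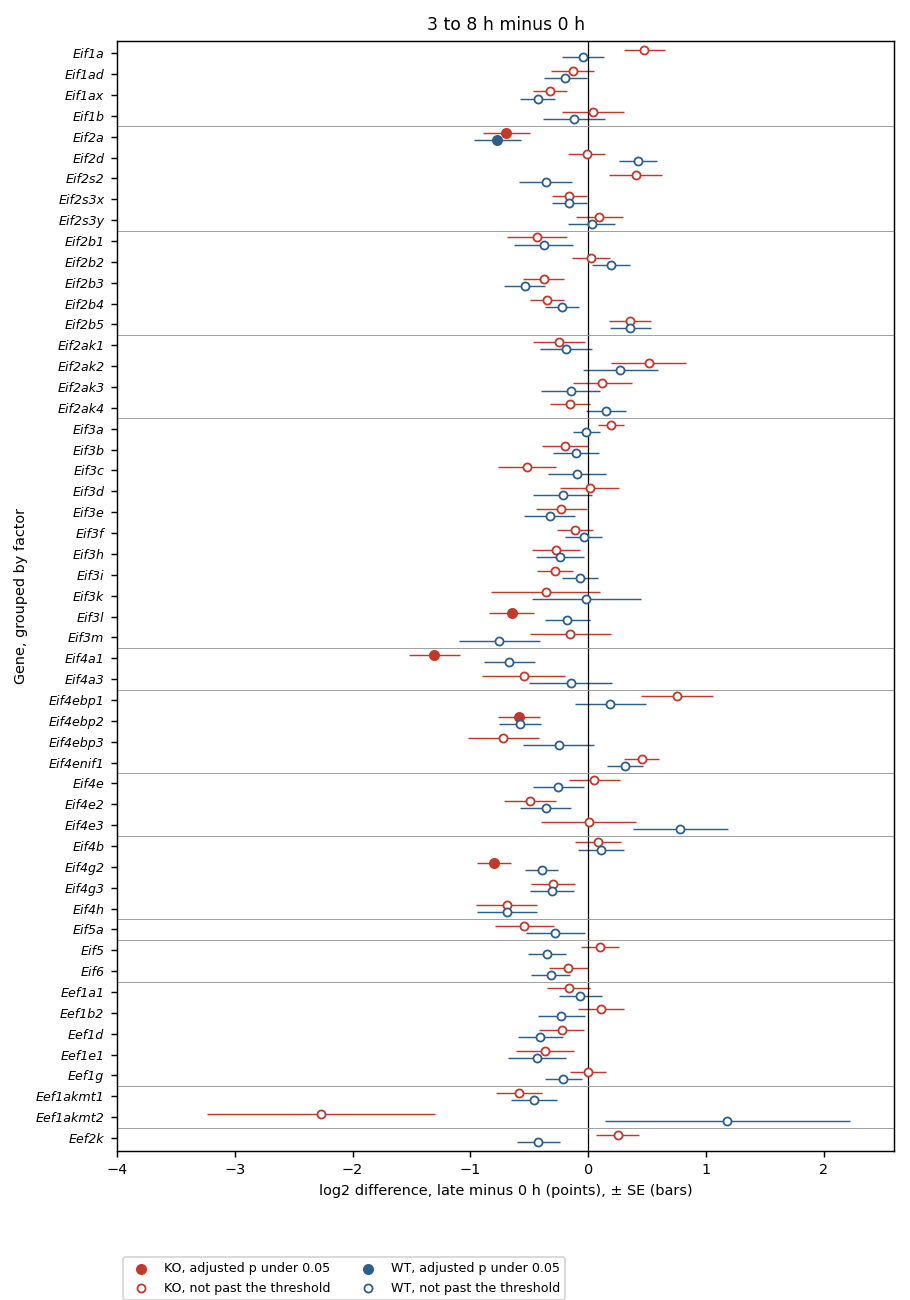
Log2 difference, late (3 to 8 h) minus 0 h (horizontal axis), for the 53 genes (rows, grouped by factor), in KO (red) and WT (blue), 4 arrays against 3 in each genotype. Points are limma estimates, bars ± 1 SE and filled points have an adjusted p under 0.05. The filled red points are Eif4a1 at -1.31, Eif4g2 at -0.80, Eif2a at -0.70, Eif3l at -0.65 and Eif4ebp2 at -0.59, and the filled blue point is Eif2a at -0.77.

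Other genes of the translation machinery give the frame for these values. Of all genes tested, 3.6% were called lower in KO cells at 0 h and 6.07% on heated arrays. At 0 h 323 of all 10625 were called higher. Of 62 cytosolic ribosomal protein genes, 56 were lower in KO cells at 0 h (median -1.02) and 49 on heated arrays (median -0.56), and 0 were higher in either. Among 15 termination, recycling and poly(A)-binding factors, 3 were lower in KO cells and 1 was higher at 0 h. Pabpc1, the main poly(A)-binding protein and itself a known TOP gene, was at -0.78 ± 0.17, Abce1, which splits ribosomes after termination, at -0.89 ± 0.22, and Paip2b, an inhibitor of poly(A)-binding protein, at 1.75 ± 0.39 (limma adjusted p = 0.010, 0.017 and 0.012). Of 18 cytosolic aminoacyl-tRNA synthetases 0 passed at 0 h (limma, 3 at an unadjusted p under 0.05) and 3 were lower on heated KO arrays: Lars, Farsa and Kars. Among 17 genes of the stress control of translation, Pdcd4, an inhibitor of eIF4A, rose in the late window by 1.20 ± 0.22 in KO (limma adjusted p = 0.0022) and by 0.87 ± 0.22 in WT (limma adjusted p = 0.025). Of the 6 measured genes that modify eIF5A or eEF2, none passed in the 2 genotype comparisons (limma, 0 at an unadjusted p under 0.05).

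The TOP genes fall on both sides of the threshold. Eef1a1, Eef1b2, Eef1d and Eef1g, given above, were lower in KO cells in at least 1 genotype comparison. Eif3e, Eif3f, Eif3h and Eif4b, whose mRNAs are TOP mRNAs in human cells, were at -0.04, -0.12, -0.16 and 0.08 at 0 h and did not pass. Their 95% intervals ran from -0.53 to 0.44, -0.47 to 0.23, -0.62 to 0.29 and -0.36 to 0.53, which leaves room for a lower or a higher level. The ribosomal protein median at 0 h, -1.02, lies below each of these intervals. On heated arrays Eif3e, Eif3f, Eif3h and Eif4b were at 0.08, -0.01, -0.04 and -0.10, and none passed. The probes of Eif3f disagreed at 0 h, as given above. In the printed windows the run of pyrimidines was 16 bases in Eif2s3x, 10 in Eef1a1, 4 in Eef1b2 and 2 in Eif4a1, all called in a genotype comparison. It was 19 in Eif2b5, 15 in Eif3f and 12 in Eif2s3y, none of them called, and these were the longest runs among genes not called. Further genes not called had short runs, such as 3 in Eif3a and Eif4h and 2 in Eif1b and Eif5. Other genes called between genotypes, whose windows are not printed, had runs of 5 (Eif3b), 4 (Eif2s2), 3 (Eif3c) and 2 to 3 (Eif5a). A run of at least 8 lay at 3 of the 11 genes that passed in any comparison (27.3%), beside 27.5% of the 40 genes. These genes were picked from what is known of human cells after the values were seen, and their values are a description.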

How the data were processed

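The deposited table holds the authors' log2 ratios of sample (Cy5, per the labels) over pool (Cy3), 1 per probe and array. The log base is not stated; if it were natural, folds here would be too small. Background correction and normalization are not given in the sources used here, and spot intensities were not used. The table has 42624 probes (3.28% of values missing). Each array was centred on its median, and a probe needed at least 2 values in each of 6 groups (KO and WT at 0 h, early, late), leaving 40453 probes, 20881 with 1 gene. A gene's value is the mean of its probes, each relative to its own mean. Probes listing a translation factor beside another gene (39) were left out.

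All 20 arrays were fitted with limma 3.58.1 in R 4.3.3 (lmFit, eBayes, 14 residual and 3.36 prior degrees of freedom, two-sided), with Benjamini-Hochberg adjustment over 10625 genes per comparison and a threshold of 0.05. The heated comparison weights early and late windows by their arrays. The fit was also run on simulated data with independent normal noise for each gene and shifts in the KO 0 h values only. Those data lack the width and time differences of these arrays, so the run does not show how reliable the calls are. Differences carry the SE of the fit, and n is the number of arrays, which limits precision. Alternatives covered centring, scaling, probe summaries, filters, the arrays fitted and leaving out each array.

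The genes, their grouping and the other lists were chosen with earlier results of these data known. Genes are named if past the threshold in any comparison, if of smallest p in their factor group at 0 h, or if among fixed stress-control genes and close copies, of which Eif2s1, Eif4g1, Eef2, Eef1a2, Eif4a2, Eif5a2 and Eif1 had no probe of their own. Other names were added after their values were seen. Markers of 7 cell types were counted; epithelial, endothelial, muscle and neural lists had 0 of 8, 5, 6 and 7 genes past the threshold at 0 h, and adipocyte 0 of 4. On heated arrays neural markers had 0 of 7. Promoter sequences are RefSeq's (GRCm38.p6).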

Additional observations from a re-analysis of the deposited data

Results flagged for a closer look

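Within the windows of 4 arrays, 63 groups were examined over the 32 named genes, and in 7 of them 1 array stood far from the other 3. Chance alone flags about 1 group in 20. The arrays of a window differ in time, so such a value may be a change over time or a single reading, and no second array exists at any of these times. On the 6 h KO array Eef1akmt2 stood at -4.56, against -0.53 to 0.30 on the other late KO arrays, and Eif1b at -0.80, against 0.20 to 0.40. On the 3 h KO array Eif5a stood at 1.08, against 0.67 to 0.69. The 4 h WT array was low for Eef1g, at 1.26 against 1.66 to 1.73, and for Eif3i, at 0.63 against 1.13 to 1.15. The 3 h WT array gave Eif2ak4 at -0.87, against -0.32 to -0.29, and Eif4e at 2.04, against 1.66 to 1.71.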

How the results depend on the processing

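Under every alternative run, 0 of the 53 genes were higher in KO in the calls of the genotype comparisons, and both medians stayed below 0. At 0 h the count of 7 was 2 when only the compared arrays were fitted and 4 to 7 with single arrays left out (4 without KO 0 h array 2). Its median of -0.28 was -0.17 without centring, -0.14 with quantile normalization and -0.16 with arrays scaled to 1 width. Without centring the median of all genes was 0.16 there, so relative to it the shift remains. The heated count stayed at 11 to 16, and its median was -0.29 with 1 probe per gene. Single probes went the other way for Eef1g (0.35 at 0 h, 0.74 heated) and Eif2s2 (0.0095 at 0 h, 0.94 heated). The WT late count of 1 was 0 without centring, with quantile normalization, with scaled arrays and with only the compared arrays, 4 with 1 probe per gene, 2 with complete values, and 0 to 4 with single arrays left out (0 without the 4 or 6 h array or 0 h array 2 or 3, 4 without the 3 h array). Its median was -0.034 with scaled arrays. The KO late count of 5 was 2 without centring, 9 with quantile normalization, 8 with scaled arrays, 3 with only the compared arrays, and 2 to 6 with single arrays left out (2 without the 6 or 8 h array or 0 h array 1 or 3, 3 without the 3 h array). The WT early median of -0.16 was 0.026 without centring, 0.021 with quantile normalization and -0.0305 with scaled arrays. The median difference between early responses, 0.15, was -0.11 without centring and 0.035 with quantile normalization. The cause of these shifts was not tested. Single calls were also lost as follows: at 0 h, Eef1b2, Eef1g, Eif2s3x, Eif2s2 and Eif5a with only the compared arrays, Eif2s2 and Eif5a with quantile normalization or scaled arrays, Eif2s2 without centring or with a looser filter; on heated arrays, Eef1a1 with scaled arrays, Eif3b, Eif3i and Eif3c with 1 probe per gene, Eif3c and Eif4ebp1 without both 0.5 h arrays; in the KO late window, Eif4g2 with 1 probe per gene, Eif2a without centring, with scaled arrays, 1 probe per gene or only the compared arrays, Eif3l without centring, with the median of probes or only the compared arrays, and Eif4ebp2 without centring, with 1 probe per gene or only the compared arrays. The WT late call of Eif2a was lost in 5 of 8 such fits. With a replicate block (0 h number, heated time) 7 genes were lower at 0 h and 12 on heated arrays, and 0 passed in either response difference. KO and WT arrays of the same number or time deviated together with r of -0.02 to 0.05. The 4 h KO array reached r = 0.15 with a WT array of another late time. Such values cannot show whether arrays of the same number share a culture or batch.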

Other observations

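Because Eif2s3x had the clearest genotype difference, other genes of the sex chromosomes were read after its value was seen. Xist, a long RNA made from the X chromosome that is silenced, was lower in KO cells by log2 differences of -3.31 ± 0.23 (0 h) and -2.83 ± 0.15 (heated), with limma adjusted p of 2.5e-07 and 2.1e-09. Ddx3x, an X-linked helicase known to escape inactivation, was at -0.83 ± 0.20 at 0 h (limma adjusted p = 0.019) and at -0.29 ± 0.13 on heated arrays (limma adjusted p = 0.21). Kdm5c and Kdm6a, 2 further genes known to escape, were at 0.09 ± 0.18 and -0.25 ± 0.20 at 0 h and did not pass in either comparison.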
